A study of Mus musculus with 13 samples.

Results

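Antibody genes were followed through single-cell RNA counts of mouse lung. The genes were the constant regions of the heavy chains (Ighm, Ighd, Ighg1, Ighg2b, Ighg2c and Igha), those of the light chains (Igkc, Iglc2 and Iglc3) and the joining chain Jchain, which makes 10 of the 31053 genes listed. They were taken by symbol, and all 10 were found. The cells that carry them were of 2 kinds: B cells, taken by Cd79a, and cells with at least 20 Jchain UMIs, called Jchain-high here. A UMI, or unique molecular identifier, marks 1 captured RNA molecule. T cells, which should make no antibody, gave the background.

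An antibody pairs heavy chains with kappa or lambda light chains. The heavy constant region sets the class. A naive B cell splices Ighm and Ighd from the same transcript and so carries IgM and IgD, and class switching then replaces them with an IgG, IgE or IgA gene further along the locus. Plasma cells secrete antibody, and J chain, the product of Jchain, links IgM into pentamers and IgA into dimers that the polymeric immunoglobulin receptor carries into mucosal secretions such as those of the airway.

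The study compared lungs of C57BL/6 mice in an ovalbumin asthma model, during emphysema from repeated instillation of porcine pancreatic elastase (PPE-emphysema), at a later time after only 1 instillation (PPE-recovery) and in controls, with 1 mouse per group by its methods. The labels list 1 sample each of Asthma, Control, PPE-emphysema and PPE-recovery, and 3 each of Acute injury, Con and emphysema, for which no separate file was analysed here. The 37344 cell barcodes of the matrix end in a library number from 1 to 7 and name no sample, so which library belongs to which group is not known, and the disease groups were not compared. No cell could be assigned to a sample, so there are no replicates here. Values are given by library number and carry no p-value.

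The libraries were not alike. They held between 3000 and 8747 barcodes and between 29701569 and 79439569 UMIs. In libraries 4, 5 and 6 the hemoglobin gene Hbb-bs took 158499 to 200045 CPM (UMIs of a gene per 1000000 UMIs of the cells summed), against 38.6 to 140 in the other 4, and Sftpc, the surfactant gene of alveolar type 2 cells, stood at 0.0646 CPM or less, against 2653 to 9425. The lung epithelial marker was thus all but absent from these 3 libraries. Libraries 5 and 6 held the most B cells and library 4 the fewest. Pairs of libraries shared between 2 and 17 barcode sequences. After the filter on UMIs, genes and mitochondrial share, 31844 cells were kept. Error ranges below are exact 95% intervals and cover counting error only.

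Sequences show which ends of the heavy chains can bind J chain. In the secreted forms of the mu and alpha chains, a short tail follows the last constant domain, and its second last codon encodes the cysteine that bonds with J chain, whereas gamma chains end without this tail. The 66 last coding bases of the secreted forms are given for the 4 heavy chains that Jchain-high cells used most after the filter, from GENCODE transcripts placed on the GRCm38 genome, minus strand of chromosome 12, with the last 2 codons in capitals.
Ighm, chr12:113420870-113420935: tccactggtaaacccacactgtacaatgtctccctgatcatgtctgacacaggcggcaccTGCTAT
Igha, chr12:113258771-113258836: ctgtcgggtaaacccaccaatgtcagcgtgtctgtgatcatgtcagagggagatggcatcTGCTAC
Ighg1, chr12:113328979-113329044: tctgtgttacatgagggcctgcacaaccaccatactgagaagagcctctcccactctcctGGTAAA
Ighg2b, chr12:113306392-113306457: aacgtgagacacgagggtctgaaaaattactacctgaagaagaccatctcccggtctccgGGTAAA
Ighm and Igha both ended in a TGC codon followed by a TAT or TAC codon, and Ighg1 and Ighg2b both ended in GGTAAA. The counts came from 3′ ends assigned per gene, so secreted and membrane forms of a heavy chain were not told apart.

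A second set of sequences bears on the lambda genes. Iglc2 and Iglc3 were identical at 303 of 314 aligned bases (96.5%), so reads can match both and their separate counts are uncertain. The last 120 coding bases are shown from the same source, minus strand of chromosome 16, with the bases that differ from Iglc2 in capitals.
Iglc2, chr16:19198539-19198658: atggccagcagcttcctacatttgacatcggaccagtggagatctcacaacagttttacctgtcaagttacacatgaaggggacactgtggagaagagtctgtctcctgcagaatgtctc
Iglc3, chr16:19065368-19065487: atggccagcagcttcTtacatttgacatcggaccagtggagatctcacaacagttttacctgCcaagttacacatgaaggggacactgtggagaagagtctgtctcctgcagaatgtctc
Iglc1, chr16:19061755-19061874: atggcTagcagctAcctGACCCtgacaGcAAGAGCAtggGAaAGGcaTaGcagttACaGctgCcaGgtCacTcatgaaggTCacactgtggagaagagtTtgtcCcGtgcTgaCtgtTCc
Iglc3 differed from Iglc2 at 2 of these 120 bases, and Iglc1 at 38. Iglc1, the lambda 1 gene, was not among the 10 genes and is given beside them because it completes the light chains.

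Jchain marked a rare set of cells. Before any filter, 80 of 37344 barcodes had at least 20 Jchain UMIs (0.214%, 0.170 to 0.267). They held 98.4% of all Jchain UMIs, 97.3% of Igha, 95.8% of Ighg1, 96.4% of Ighg2c and 72.4% of Ighg2b. The Ighg2c share rested on 2 barcodes with 1747 and 4566 UMIs of it. Both were removed by the filter described below, and among kept cells the Ighg2c share was 0.741%. Their share was lower for genes that B cells also carried, at 59.0% of Igkc, 37.5% of Iglc3, 34.2% of Ighm, 6.42% of Iglc2 and 0.00684% of Ighd. The gate itself used the Jchain count, so the Jchain level describes these cells and is no finding. The highest count under the limit was 15 UMIs in 1 cell, the lowest above it was 23, and 68 of the 80 barcodes had 100 or more. Counts were sparse on both sides, with 8 barcodes at 5 to 9 UMIs, 2 at 20 to 29 and 5 at 30 to 49. The space between 15 and 23 thus does not show 2 separate kinds of cell.

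The filter removed most of these cells. Of the 80, 43 lay above the upper limit of 21736 UMIs, 9 of them also above the limit on genes, and 2 had too high a mitochondrial share, which left 35 of 31844 kept cells (0.110%, 0.0766 to 0.153). By library, 30, 25, 4, 0, 5, 0 and 16 barcodes were found in libraries 1 to 7 before the filter, and 17, 10, 2, 0, 4, 0 and 2 after it. Library 7 lost 14 of 16 to the UMI limit. The counts of 0 among kept cells, with up to 3 allowed, leave room for a share of up to 0.101% in library 4 and 0.0615% in library 6. The smallest barcodes of libraries 4, 5 and 6 held 5735, 3439 and 3946 UMIs, against 304 to 501 in the others. Shallower cells could not be counted there, so these shares are not fully comparable between libraries.

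Antibody and Jchain transcripts made up a median of 48.4% of all UMIs in the 80 barcodes, with a range from 0.880% to 85.6%. In the kept cells with the fewest Jchain UMIs, 23 to 35, this share was 1.11% to 4.31%. Those of libraries 1 and 5 among them had 11 to 60 UMIs of the B cell gene Cd79a. A median barcode held 22539.5 UMIs in all and 446.5 Jchain UMIs. One heavy chain accounted for at least 86.8% of the heavy-chain UMIs in each of the 80, so every barcode could be given a main heavy chain.

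**Figure D1:**
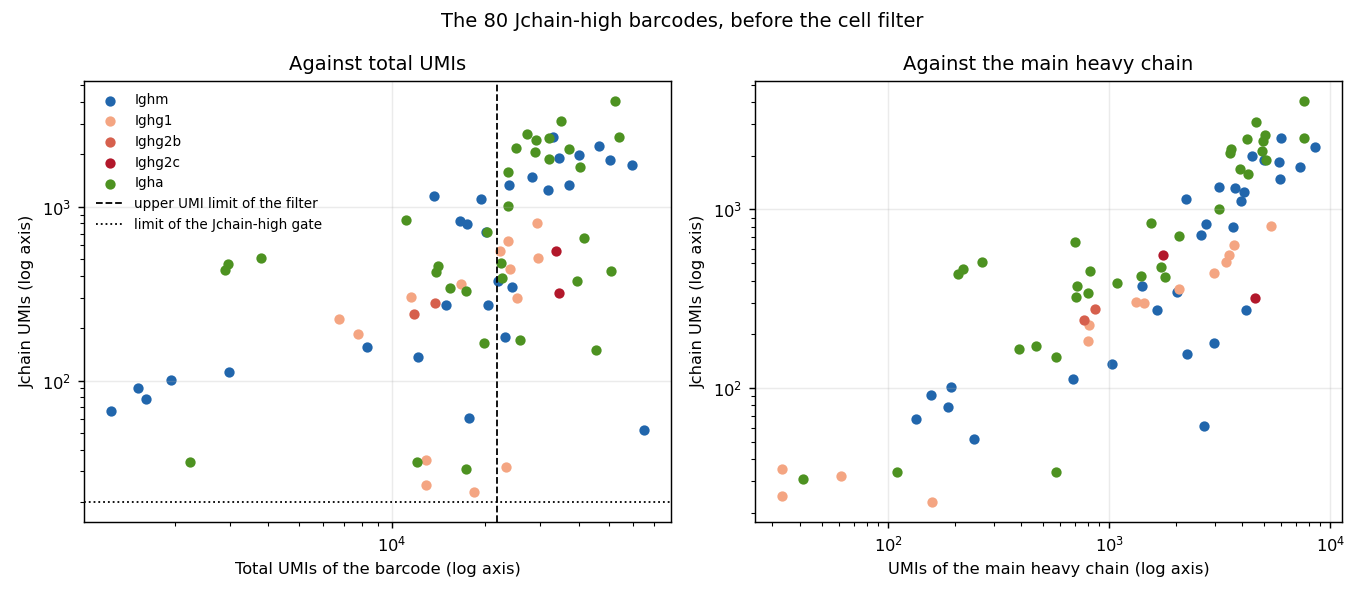
Jchain UMIs of the 80 Jchain-high barcodes before the filter, against total UMIs (left) and against UMIs of the main heavy chain (right), all on log axes, with 1 point per barcode colored by main heavy chain. The dashed line is the upper UMI limit, to the right of which 43 barcodes lie, and the dotted line is the limit of 20 Jchain UMIs.

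IgM and IgA, the classes that J chain links, were the main heavy chain of most Jchain-high cells, but IgG cells were also present. The gate took cells by Jchain count, so antibody-secreting cells with little Jchain are missing from these class shares. Before the filter, Igha led in 33 of 80 (41.2%, 30.4 to 52.8), Ighm in 29 (36.2%, 25.8 to 47.8), and an IgG gene in 18 (22.5%, 13.9 to 33.2), of which 14 were Ighg1, 2 Ighg2b and 2 Ighg2c. After it, Ighm led in 14 of 35 (40%, 23.9 to 57.9), Igha in 12 (34.3%, 19.1 to 52.2), Ighg1 in 7 and Ighg2b in 2. The order of Ighm and Igha thus changed with the filter, and their intervals overlapped in both sets. Ighd, Ighg3 and Ighe led in none of the 80, which for each allows up to 4.51%.

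The classes were spread unevenly over libraries. Among all barcodes, library 1 held 13 with Ighm, 10 with Ighg1 and 7 with Igha. Library 2 held 15 with Igha, 9 with Ighm and 1 with Ighg2c. Library 7 held 8 with Igha, 5 with Ighm, 2 with Ighg1 and 1 with Ighg2c. The share of Igha was 23.3% (9.93 to 42.3) in library 1, 60% (38.7 to 78.9) in library 2 and 50% (24.7 to 75.3) in library 7, and the interval of each overlapped those of the other two. Library 3 held 2 with Ighm and 2 with Igha, and library 5 held 2 with Ighg1, 2 with Ighg2b and 1 with Igha. Both Ighg2b cells came from library 5, and no Ighg1 cell came from libraries 2 or 3.

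**Figure D2:**
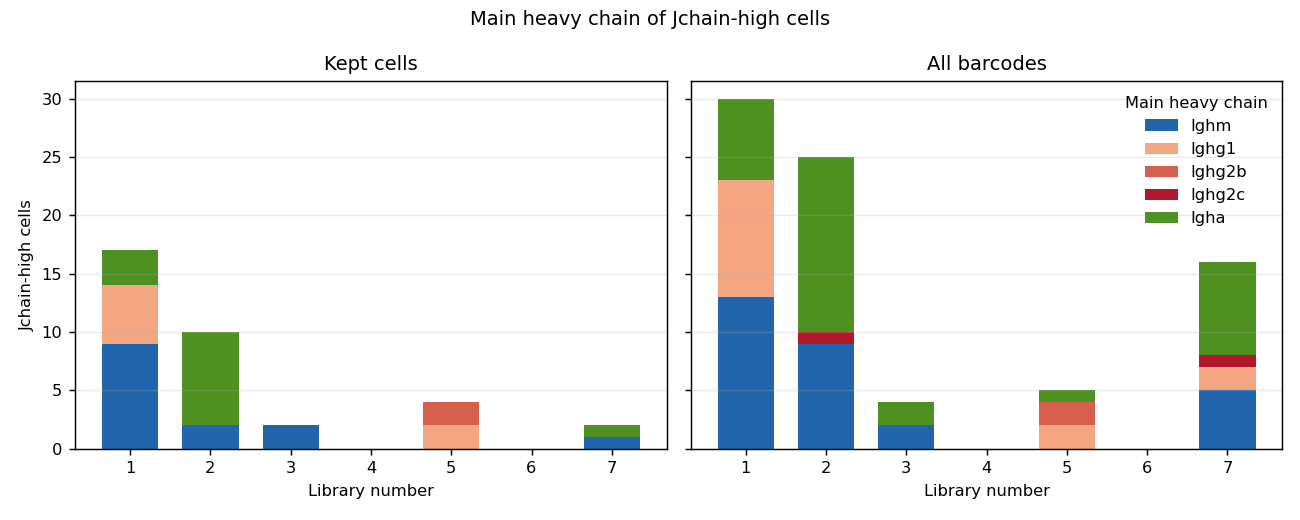
Number of Jchain-high cells by library number, after the filter (left) and before it (right), stacked by main heavy chain. Libraries 4 and 6 have none, and library 7 falls from 16 to 2.

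Jchain relative to the heavy chain had a higher median in Igha cells over all barcodes, but not in every library. The median was 0.435 Jchain UMIs per main heavy-chain UMI in Igha cells (0.0589 to 2.14, 33 barcodes), 0.276 in Ighm cells (0.0228 to 0.580, 29 barcodes) and 0.218 in IgG cells (0.0701 to 1.06, 18 barcodes). These ranges overlapped widely, and the gate on Jchain left out cells that would have had low ratios. In library 7 the median was 0.380 for 5 Ighm and 0.362 for 8 Igha barcodes, and in library 5 it was 0.278 for the 1 Igha and 0.295 for the 4 IgG barcodes. The IgG barcodes had a median of 301 Jchain UMIs each. The gate took only cells with at least 20, so this describes the set and is no finding. Igkc per heavy-chain UMI in cells with a kappa chain had medians of 2.72 for Igha, 2.27 for Ighm and 2.67 for IgG.

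Some barcodes were shallow and alike in content. Library 1 had 4 Ighm barcodes of 1241 to 1946 UMIs in all, with 67 to 101 Jchain, 134 to 192 Ighm and 480 to 699 Igkc UMIs. Library 2 had 3 Igha barcodes of 2892 to 3779 UMIs, with 434 to 509 Jchain, 207 to 265 Igha and 724 to 884 Igkc UMIs. The latter 3 had 1.92 to 2.14 Jchain UMIs per Igha UMI, above the median of 0.435 for this class. Within the sets the barcode sequences differed at 9 to 13 and 12 to 14 of 16 bases, and whether each set came from a single cell was not tested. The filter kept all 7 of these barcodes.

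Mki67, a gene of cycling cells, was found in each class. It had at least 2 UMIs in 22 of the 80 barcodes, namely 8 of 29 with Ighm, 8 of 33 with Igha and 6 of 18 with IgG. After the filter this held for 4 of 35, namely 1 of 14 with Ighm, 2 of 12 with Igha and 1 of 9 with IgG. Most of the 22 were thus barcodes that the filter removed, and the part of depth or doublets was not tested.

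Variable genes, looked at after the constant genes had been seen, gave a few repeated pairs. A heavy and a kappa variable gene could both be called in 27 of 74 kappa barcodes, which gave 23 pairs, and 2 pairs occurred in more than 1 cell. Ighv11-2 with Igkv14-126, a pairing known from B-1 cells that bind phosphatidylcholine, occurred in 4 Ighm barcodes, 2 each of libraries 1 and 2. Of these the filter kept only the library 1 barcode of 19330 UMIs. The other barcode of library 1, of 31829 UMIs, also held 12 CD3 UMIs. Ighv5-16 with Igkv3-12 occurred in 2 Ighg1 cells of library 1. Only the variable gene was read, not the joint, so the cells of a pair cannot be said to be 1 clone.

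B cells carried Ighm and Ighd together and little of the other heavy chains. The gate took cells with at least 2 Cd79a UMIs, no CD3 UMI and under 20 Jchain UMIs, and gave 357, 343, 509, 149, 1598, 1924 and 238 kept cells in libraries 1 to 7, 5118 in all. Other B cell genes were found in most of them, with a UMI of Cd79b, the partner of Cd79a, in 98.2% of cells and of Ms4a1 (CD20) in 95.9%. T cells numbered 1611. Median depths were 5141.5 UMIs in B cells and 6210 in T cells.

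Ighm in B cells stood at 3784, 3026, 3485, 2282, 4515, 3404 and 5905 CPM in libraries 1 to 7, and 93.8% to 99.2% of cells had a UMI. In T cells it was 130 to 318 CPM, and 34.3% to 78.3% of cells had a UMI. The level of Ighm was lowest in library 4 and highest in library 7, and in every library B cells exceeded T cells by more than the counting error.

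Ighd in B cells stood at 712, 653, 898, 586, 1365, 1442 and 300 CPM, with 1.03 to 32.9 in T cells. A UMI of Ighd was found in 79.6%, 85.7%, 89.8%, 89.3%, 95.6%, 97.6% and 67.6% of B cells, against 1.53%, 1.25%, 0.669%, 4.11%, 12.6%, 19.2% and 1.17% of T cells. Library 7 was the lowest of the 7 although its B cells were the deepest, with a median of 11046 UMIs against 3663 to 9062. With each cell thinned to 2000 UMIs, the share was 40.3% (34.0 to 46.9) in library 7 and between 62.4% and 89.3% in the others. Cells with both Ighm and Ighd numbered 4725 of 5118 (92.3%).

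The balance of Ighd and Ighm was lowest in library 7 as well. Per 1000 Ighm UMIs, B cells of libraries 1 to 7 held 188, 216, 258, 257, 302, 424 and 50.8 Ighd UMIs. B cells of library 7 also differed in other genes. Ighg3 had a UMI in 16.8% of them, against 0.884% to 4.70% elsewhere, and stood at 51.8 CPM, against 4.72 to 18.5. Zbtb32 had one in 49.2%, against 0.572% to 18.8%, and Fcer2a (CD23), a marker of follicular B cells, in 38.2%, against 59.7% to 82.6%. The part that depth has in these shares was tested for Ighd alone, by thinning. Zbtb32 and Fcer2a were picked from longer marker lists, whose other genes are not given here by library, so they name no type of B cell.

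Switched heavy chains were rare among B cells. A switched gene was the main heavy chain, with at least 10 UMIs, in 46 of 5118 cells (0.899%, 0.659 to 1.20), of which 21 were Ighg1, 15 Ighg2b, 8 Igha and 2 Ighg3. Library 1 held 19 of the 46, which was 5.32% of its B cells (3.23 to 8.19), while the other libraries had 0.260% to 2.01%. In the whole matrix, Ighe, the IgE gene, had 12 UMIs in 7 barcodes. IgE transcripts were thus hardly detected in any library.

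Ighg1 in B cells stood at 158, 0, 0, 88.4, 11.5, 0.0850 and 51.4 CPM in libraries 1 to 7, and its 48 cells with a UMI included 27 with Ighm as well. Ighg2b stood at 75.7, 24.1, 9.87, 7.31, 20.5, 6.63 and 17.5 CPM. The level of Ighg1 varied far more between libraries than that of Ighg2b, and in library 4 it came from 3 cells. Ighg2c, another IgG2 gene of C57BL/6 mice, stood between 0 and 5.38 CPM in B cells.

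Igha in B cells stood at 47.9, 25.9, 38.2, 1.33, 5.62, 7.91 and 15.9 CPM, against 4.49, 8.21, 4.11, 0, 2.28, 0.732 and 10.6 in T cells. Jchain in B cells stood at 31.8, 9.91, 4.52, 7.31, 1.43, 0.255 and 10.8 CPM, against 2.04, 7.78, 0.514, 0, 0, 1.46 and 1.76 in T cells. For Igha the intervals of B and T cells overlapped in libraries 4, 5 and 7, and for Jchain in libraries 2 to 6. There, B cells could not be told from the background at this depth.

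**Figure D3:**
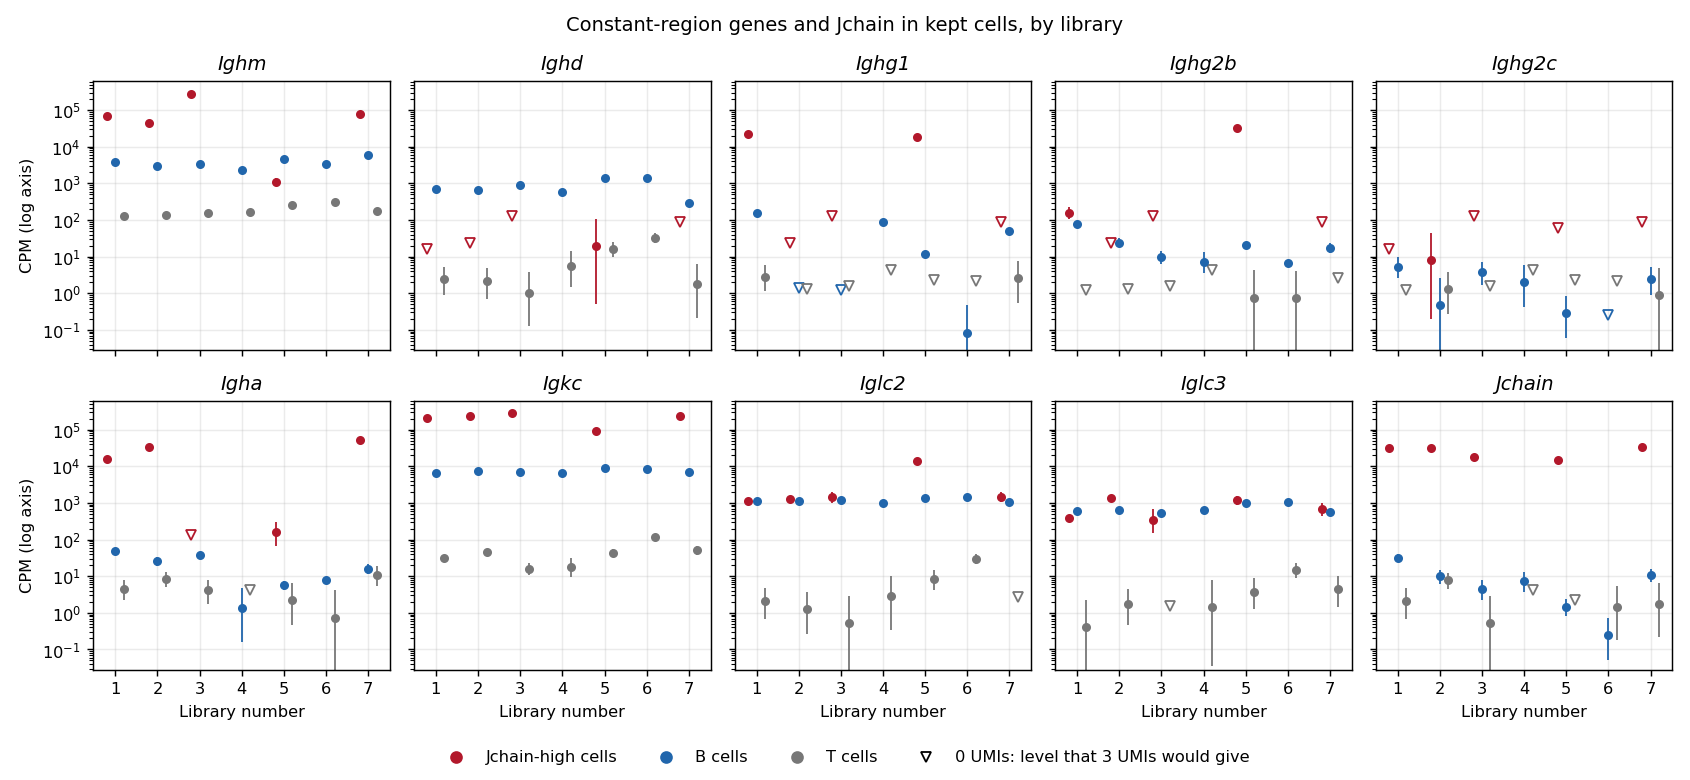
Level of each of the 10 genes in kept Jchain-high, B and T cells, in CPM on a log axis, by library number, with exact 95% Poisson intervals as bars. Open triangles mark 0 UMIs and stand at the level that 3 UMIs would give, and no Jchain-high cell was kept in libraries 4 and 6.

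Kappa was the light chain of most B cells. Igkc stood at 6441, 7408, 7147, 6478, 8715, 8520 and 7048 CPM in B cells of libraries 1 to 7. Kappa made up 73.6% of all light-chain UMIs in B cells (73.5 to 73.8), and 72.9% to 76.4% by library. With each cell called by its more abundant light chain, 4597 of 5063 B cells were kappa (90.8%, 90.0 to 91.6), and 86.1% to 92.1% by library. The share by UMI was lower than that by cell in all 7 libraries.

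Lambda transcripts were present in nearly all kappa B cells. Of the 4597 kappa B cells, 98.9% had a lambda UMI, with medians of 47 Igkc, 5 Iglc2, 4 Iglc3 and 1 Iglc1 UMIs per cell. Of the 453 lambda B cells, 72.2% had an Igkc UMI, with a median of 6, and 223 were led by Iglc1, 183 by Iglc2 and 47 by Iglc3. Among T cells, at a greater median depth, Iglc2 had a UMI in 3.66% and Iglc3 in 2.23%. The T cell gate took no cell with a UMI of Cd79a, Cd79b or Ms4a1, so it can understate free B cell RNA. The source of the lambda UMIs in kappa B cells was not tested. The T cells of library 6, where B cells were most numerous, stood highest at 18.7% and 10.1%, and without library 6 the shares were 1.56% and 1.13%.

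**Figure D4:**
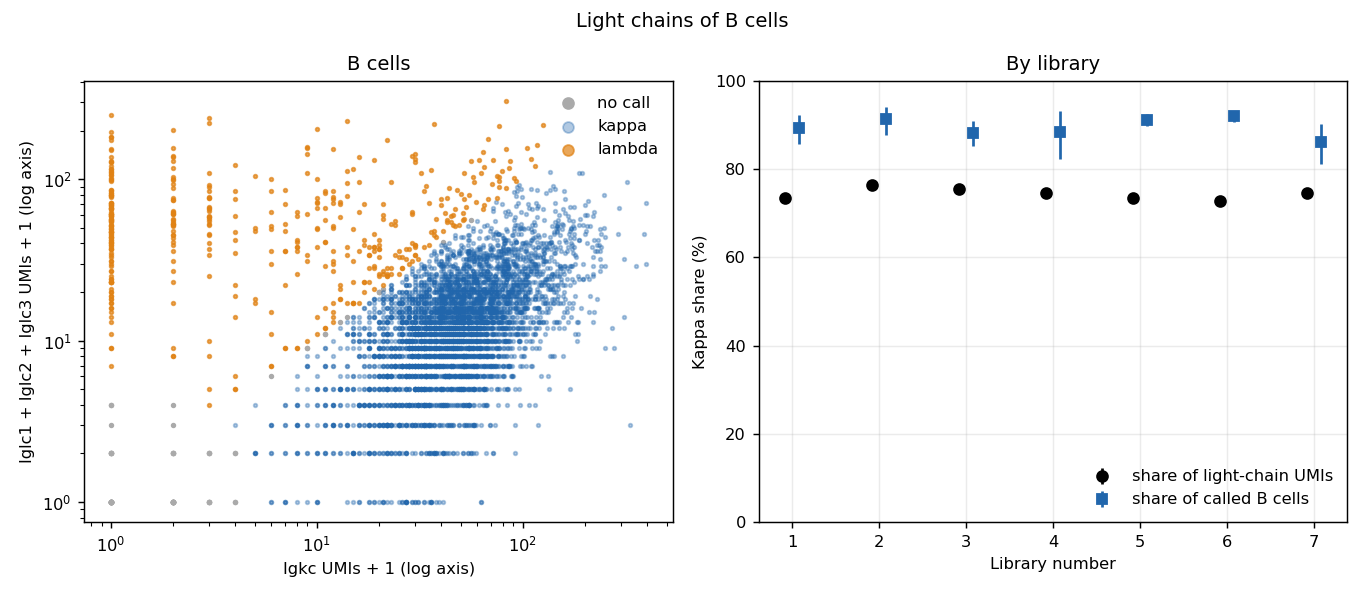
Left, Igkc UMIs against summed Iglc1, Iglc2 and Iglc3 UMIs of each of the 5118 B cells, both plus 1 on log axes, colored by the light chain called. Right, kappa share by library number with exact 95% intervals, 72.9% to 76.4% of UMIs (circles) and 86.1% to 92.1% of cells (squares).

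In Jchain-high cells, lambda transcripts were fewer per Igkc UMI than in B cells. Of the 80 barcodes, 74 were kappa and 6 lambda, of which 3 were led by Iglc1 and 3 by Iglc3, and none of the 6 had more than 13 Igkc UMIs. In the 74 kappa barcodes there were 7.48 Iglc1, 6.85 Iglc2 and 1.66 Iglc3 UMIs per 1000 Igkc UMIs. In the 4597 kappa B cells these values were 42.4, 122 and 94.2. In the 32 kept kappa cells they were 6.07, 12.9 and 2.41. As a share of all UMIs, Iglc2 and Iglc3 were 2.16 and 0.896 times those of B cells over the 35 kept Jchain-high cells. These 35 included lambda cells, and their Igkc share was 25.9 times that of B cells. Within libraries 1 and 2, Iglc2 stood at 1.02 and 1.10 times and Iglc3 at 0.634 and 2.12 times. In 2 kept kappa cells of library 5, Igkc made up 75.5% and 72.9% of light-chain UMIs. These 2 cells held 312 and 344 of the 1175 Iglc2 UMIs of the 35. One of the 6 lambda cells, in library 2, had 31 Jchain and 41 Igha UMIs beside 292 UMIs of Lyz2 and 14 of Csf1r, both myeloid genes, and none of Cd79a or of the plasma cell gene Mzb1.

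Across all genes, Jchain-high cells were set against B cells by the ratio of summed CPM among 11136 genes with at least 50 UMIs. A ratio of at least 4 was found for 261 genes (2.34%), and 2684 (24.1%) were at least 4-fold lower, with a median ratio of 0.555 over all. Antibody RNA fills a large share of the Jchain-high total. With antibody genes left out of both totals every ratio was higher, with a median of 0.862, and 529 genes were higher and 2060 lower, so that the higher ones rose from 8.86% to 20.4% of the genes called. In libraries 1 and 2 alone, 102 were higher. Genes without a UMI in the 35 Jchain-high cells count as lower. Of the 10 genes, 9 could be tested, and Jchain and Igha, Ighg1, Ighg2b, Igkc and Ighm were among those higher. Igha was 1593-fold higher (1447 to 1757), Ighg1 576-fold (532 to 623), Ighg2b 225-fold (204 to 247), Igkc 25.9-fold (25.7 to 26.1) and Ighm 16.6-fold (16.4 to 16.8). Iglc2 at 2.16 and Iglc3 at 0.896 did not reach the limit. Ighd went the other way, with 1 UMI in 35 Jchain-high cells, at a ratio of 0.00206 (5.21e-05 to 0.0115). Jchain-high cells came mostly from libraries 1 and 2 and B cells from libraries 5 and 6, so the ratios were also taken within a library. Within library 1 and library 2, Igha was 334- and 1286-fold higher, Igkc 32.9- and 31.1-fold and Ighm 17.9- and 14.3-fold, each well past the limit. Ighg1 was 143-fold higher within library 1 and had no UMI in either group of library 2. Ighg2b rested on 2 of the 4 Jchain-high cells of library 5, which held 1633 of its 1663 UMIs. The ratio was 2.10 within library 1, and Jchain-high cells of library 2 had none. These 2 cells of library 5 had 861 and 772 Ighg2b UMIs and were alike in Jchain (278 and 241) and Igkc (1221 and 1130). Whether they came from a single cell was not tested. Ighd had no UMI in Jchain-high cells of either library.

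Genes of plasma cells were higher together. Jchain is on the list of 15 and was used by the gate, so it was set aside. Of the others, 13 could be tested and all 13 were at least 4-fold higher, beside 2.34% of all genes. Their median ratio was 18.1. Within library 1 this held for 11 of 11 tested, beside 1.6% of all genes there, and within library 2 for 7 of 8, beside 1.45%. The test needed 50 UMIs summed over both groups. Tnfrsf17, with 86 UMIs in Jchain-high and 6 in B cells, reached this only through Jchain-high cells. Its call was thus set by the limit and adds nothing to the count. The rest of the 13 reached it in B cells alone, with Derl3 the lowest at 62. Whether genes also did so within a library was not tested. There, some may have reached the limit only through Jchain-high cells. The counts of higher genes within a library, here and below, are therefore descriptive and add no support. Tnfrsf17 (BCMA), the survival receptor of plasma cells, was 1119-fold higher (494 to 3135) and 103-fold within library 1, and had no UMI in B cells of library 2. Derl3, part of protein export from the endoplasmic reticulum, was 175-fold higher (129 to 240), but 58.4- and 70.0-fold within libraries 1 and 2. Prdm1 (Blimp-1), which directs plasma cell identity, was 41.0-fold higher (31.1 to 53.7), and 18.3- and 12.3-fold within these. Xbp1, of the unfolded protein response, was 18.1-fold higher (16.3 to 20.1), and 16.6- and 18.4-fold. Irf4 at 4.17-fold and Slamf7 at 5.75-fold were the lowest of the 13.

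Genes of B cell identity were lower. B cells were gated on Cd79a, so this gene was set aside. Of the 7 others listed 6 were at least 4-fold lower, beside 24.1% of all genes, and none higher. Within libraries 1 and 2 it was 6 of 7 each, beside 19.3% and 22.1% of all genes lower there. With antibody genes left out of the totals it was 4 of 7 within library 1, beside 10.03% of all genes. Within library 2 it stayed at 6 of 7, beside 15.15%. Pax5, which holds B cell identity, had a ratio of 0.0638 (0.0318 to 0.114), Ms4a1 of 0.145 and Fcer2a of 0.0186. Cr2 (CD21) had no UMI and was at least 22.4-fold lower if up to 3 UMIs are allowed. The exact interval of its ratio reached 0.0549. Cd79b of the receptor complex, at 0.346, fell short of the limit. Its partner Cd79a stood at 0.298, a value that the gate set in part. In summed counts antigen presentation differed less, since 4 of 5 genes lay between 0.307 for H2-Aa and 0.451 for H2-Ab1. Ciita, their activator, was at 0.0713. The sum for H2-Aa rested on few cells, since 1 kept barcode of library 2 held 242 of its 452 UMIs. This was the lambda cell with myeloid genes and no Cd79a or Mzb1 UMI described above. The next highest kept barcode, in library 1, held 69. At least 20 H2-Aa UMIs were found only in 2 Igha and 3 IgG kept cells. These had 23 to 35 Jchain UMIs, the fewest of the kept set. How the UMIs of H2-Ab1, H2-Eb1 and Cd74 were spread over cells was not tested.

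Of 5 homing receptors tested, 2 were lower and 1 was higher, beside 24.1% and 2.34% of all genes. Within libraries 1 and 2, all 3 tested in each were lower, beside 19.3% and 22.1% of all genes there. With antibody genes left out of the totals it was 1 and 2 of 3, beside 10.03% and 15.15%. Cxcr5 at 0.0167 and S1pr1 at 0.191 were lower, and these guide cells into follicles and out of lymph nodes. With antibody genes left out of the totals S1pr1 stood at 0.296, short of the limit. Ccr9, a receptor of gut homing, was 10.1-fold higher, but its 10 UMIs lay in 3 of the 35 Jchain-high cells, 9 of them in 2 cells. All 10 were in library 2 (21.2-fold within it). Cxcr4 stood at 0.366. Ccr10, a receptor that brings IgA plasma cells to mucosa, had too few UMIs for the test, with a UMI in 31.4% of Jchain-high and 0.0391% of B cells, at median depths of 13647 and 5141.5 UMIs. Fcmr, the IgM receptor of B cells, had a ratio of 0.0199 (0.00645 to 0.0464). The cell cycle genes Mki67 (19.4-fold), Top2a (11.0-fold), Ccna2 (14.5-fold) and Birc5 (23.3-fold) were 4 of 5 higher, beside 2.34% of all genes. However, a few cells carried them. Of 61 Mki67 UMIs, 2 cells held 51, and of 41 Top2a UMIs 1 cell held 30. Within library 1 only 1 of the 3 tested was higher, beside 1.6% of all genes there, with Mki67 at 4.10 and Top2a at 2.08. Within library 2 it was 2 of 3, beside 1.45%.

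The largest ratios outside the antibody genes also included Creld2 of the plasma cell list at 27.9-fold and Ly6c2 of the myeloid list at 23.8-fold. Beyond the lists they included Eaf2 at 48.1-fold, Slpi at 31.3-fold, Ctla4 at 29.8-fold, Cacna1s at 21.7-fold and Rgs1 at 21.2-fold. Most of these were smaller within libraries 1 and 2. There, Creld2 stood at 18.7 and 13.0, Eaf2 at 24.5 and 32.9 and Cacna1s at 10.9 and 16.2. Ctla4 stood at 8.15 and 7.36 and Rgs1 at 5.62 and 4.34. Slpi, a secreted protease inhibitor, was 98.0-fold higher within library 1 and 2.08-fold within library 2. The lowest were B3gnt5, Cnn3, Lrrk2 and Slc44a2 beside Cr2, with no UMI in Jchain-high cells and at least 24.1-, 14.6-, 18.9- and 15.4-fold lower. Also among the 10 lowest were the neutrophil genes S100a8 (0.00886) and S100a9 (0.0122), Trim12a (0.0117) and Clec2i (0.0157). Neutrophil genes summed to 170 to 9893 CPM in B cells by library, and to 0 to 24.0 in Jchain-high cells of libraries 1 and 2, and erythroid genes to 6.58 to 192826 and 0 to 80.1. The part of these in the ratios was not tested. Of the 4 myeloid genes 2 were higher, beside 2.34% of all genes. C1qa was 18.8-fold higher with all of its UMIs in 1 cell. Ly6c2 had a UMI in 20 of the 35 Jchain-high cells and was 40.6- and 20.1-fold higher within libraries 1 and 2. Csf1r at 1.5 and Lyz2 at 1.01 did not reach the limit.

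Over the 31844 kept cells, the genes outside the antibody genes, with a UMI in at least 0.5% of cells, whose level went most with that of Jchain were Derl3 (r = 0.352), Eaf2 (0.243), Cacna1s (0.149), Mzb1 (0.117) and Txndc5 (0.0962). Among the antibody genes, Igha had 0.293, Ighg1 0.186, Ighg2b 0.113 and Igkc 0.0978, and Ighd had -0.0328. The cells share libraries and differ in depth, and with sparse counts these values describe the matrix only.

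Antibody RNA outside B cells was not of 1 composition. Igkc, as the measure of free RNA, had a UMI in 15.1%, 27.2%, 7.36%, 11.0%, 30.8%, 54.0% and 26.9% of T cells in libraries 1 to 7, and stood at 31.0, 45.4, 15.9, 18.3, 44.1, 120 and 51.1 CPM there. Library 6, with the most B cells, had the highest level. Ighg1 had UMIs in T cells of libraries 1 and 7 alone, which both held Jchain-high barcodes led by Ighg1, as library 5 did. Ighg2c had only 4 UMIs in T cells, all in libraries 2 and 7, the same libraries as the 2 barcodes led by Ighg2c. Ighg2b had 2 UMIs in T cells, in libraries 5 and 6, and library 6 held no Jchain-high barcode.

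Ighm did not follow Igkc in these cells. Per Igkc UMI, B cells held 0.352 to 0.838 Ighm UMIs by library, and T cells 2.65 to 9.77. Endothelial cells held 0.541 to 1.84 and erythroid cells 0.478 to 0.926, nearer to B cells. Myeloid cells ranged from 0.957 in library 7 to 23.2 in library 4. The ratio in T cells was above that of B cells of the same library in all 7, by more than the counting error.

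Plasmacytoid dendritic cells, taken by Siglech, also held more Ighm than Igkc. In the 4 libraries with more than 20 of them they held 5.03 to 11.4 Ighm UMIs per Igkc UMI, and in library 3 this was below T cells (9.77) and myeloid cells (12.4). Ighm stood at 860, 564, 1060, 624, 659, 771 and 528 CPM in libraries 1 to 7, with a UMI in 84.6% to 100% of cells. Iglc3 stood at 330 CPM over the 137 cells (302 to 361), against 3.20 in T cells, 1.53 in myeloid and 872 in B cells, and Iglc2 at 40.9 (31.4 to 52.4). Jchain, at 4 UMIs in 137 cells, was at 2.64 CPM (0.719 to 6.75), against 2.49 in T cells. These cells thus held more UMIs of Ighm and of Iglc3 than of Igkc, and Jchain at the background of T cells.

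**Figure D5:**
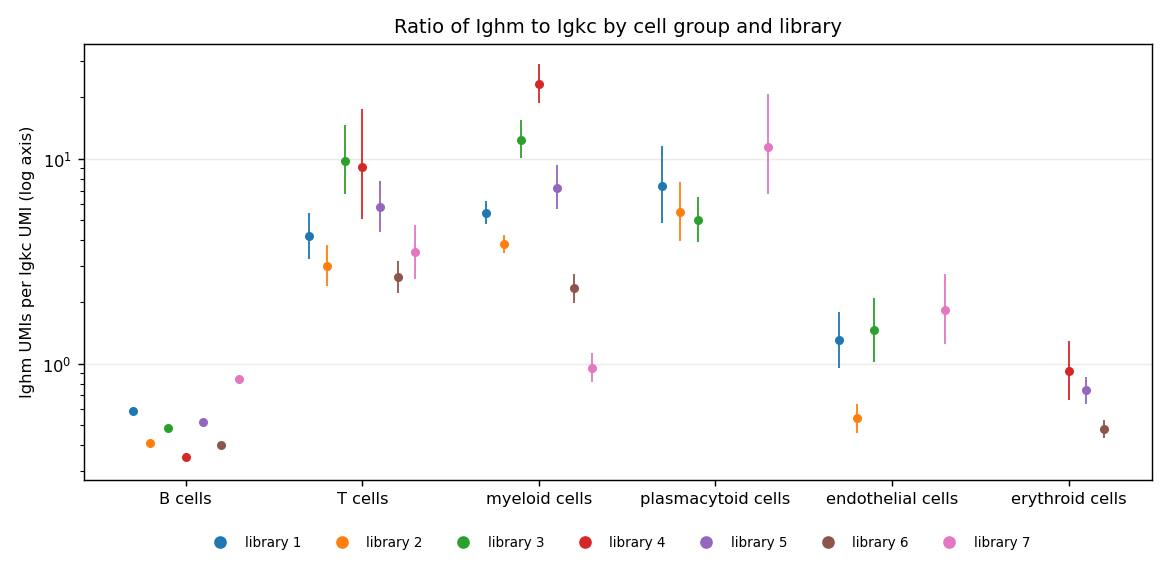
Ighm UMIs per Igkc UMI in summed counts of 6 groups of cells, by library (color), on a log axis with exact 95% intervals, for groups of at least 10 cells. B cells lie between 0.352 and 0.838 and T cells between 2.65 and 9.77.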

How the data were processed

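The deposited values were raw UMI counts in 1 matrix of 31053 genes and 37344 barcodes. The authors made them on mm10 with STAR in Cell Ranger 3.1.0, after down-sampling reads to even out the libraries, and the matrix precedes their cell filter. The labels name version 3 of the 3′ kit and the methods version 2.

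Kept cells lay within 2 SD of the mean of UMIs and of genes, and had a mitochondrial share of 10% or less. Jchain-high cells had at least 20 Jchain UMIs. B cells had at least 2 Cd79a UMIs, no CD3 UMI and under 20 Jchain UMIs. T cells had at least 2 CD3 UMIs and none of Cd79a, Cd79b or Ms4a1. Myeloid (Csf1r) and plasmacytoid (Siglech) cells had at least 2 UMIs of the gene named. Endothelial cells (at least 2 Cdh5 UMIs), erythroid cells (at least 500 Hbb-bs UMIs), the ratios to Igkc, the variable genes (at least 5 UMIs and 80% of their kind) and the comparison within libraries were added after the data were seen. No doublet caller was run. A main heavy chain had at least 10 UMIs and 50% of heavy-chain UMIs, and a light chain was called from 5 light-chain UMIs.

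The 10 genes, the marker lists and the rules were chosen with earlier results of these data known. A few genes of the lists are not reported here and were left out of the list counts. Named beside them were the genes of the lists, the 10 of highest and 10 of lowest ratio outside antibody genes (a UMI in at least 25% of cells and at least 100 CPM in the higher group) and the 5 of highest correlation with Jchain. Where 0 UMIs were counted, up to 3 were taken as allowed. Intervals for summed counts were exact Poisson, and for shares exact binomial. In data simulated for the comparison of Jchain-high with B cells over 31053 genes, 100% of 200 genes raised 8-fold were called. The 200 were drawn from well-counted genes only, and the simulated counts had no spread between cells. The result therefore does not cover sparse genes or genes carried by a few cells. Sequences and positions came from GENCODE transcripts on GRCm38. Python 3.11.15, numpy 2.4.6, scipy 1.17.1, pandas 2.3.3 and matplotlib 3.10.9 were used.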

Additional observations from a re-analysis of the deposited data

How the results depend on the processing

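The Jchain-high cells numbered 35 after the filter, 78 with no upper limit on UMIs and genes, 80 with no filter, 71 with those under 5000 UMIs also left out, and 23 with at most 5% mitochondrial UMIs. Leaving out 1 library at a time gave 18 to 35, and the 18 was without library 1. The Igha share of 34.3% ranged from 16% to 50% (16% without library 2) and the Ighm share of 40% from 27.8% to 48%, and neither moved beyond its interval under the other settings. The kappa share of 73.6% became 74.2% at 5% mitochondrial UMIs and 90.8% by cell, and 73.5% to 74.1% with a library left out. B cells with an Ighd UMI (92.5%) became 91.6% with no filter, 84.0% and 93.4% with at least 1 and 5 Cd79a UMIs, 81.3% with thinning, and 89.4% to 93.7% with a library left out. T cells with an Igkc UMI (23.5%) became 28.8% at 5% mitochondrial UMIs, 8.34% with thinning, and 19.2% to 27.1% with a library left out, and endothelial cells gave 16.8%. The 261 genes higher in Jchain-high cells became 566 from 10 UMIs, 769 at a ratio of 2, 529 with antibody genes left out of the denominators, and 102 in libraries 1 and 2 alone, and 198 to 310 with a library left out. The comparison within libraries, the calls of gene lists without antibody RNA in the totals, the endothelial cells and the limit of 5000 UMIs were chosen after seeing the data. No paired analysis was possible because the barcodes carry no replicate number of a sample. With 35 kept Jchain-high cells in 5 libraries, shares by class have wide intervals.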
